A study of Oryza sativa Japonica Group with 28 samples.

Results

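Cross cells (CC) of the rice grain were compared between 16 and 4 days after flowering (DAF). They are the part of the series whose labels name cross cells as the grain sub-region, and 5 of its 28 libraries hold them: MM17 and MM18 of 16 DAF, MM05 and MM13 of 4 DAF, and the single library MM21 of 8 DAF, which is shown as the point between and was not tested. All grains came from untreated Nipponbare plants in hydroponic culture, and each preparation pooled 3 grains. The other 23 libraries hold nucellar epidermis (NE), ovular vascular trace (OVT) and endosperm (EN) of the same stages, and the aleurone layer (AL) of 16 DAF. Each tissue was cut out by laser from frozen sections, and its cDNA was amplified by PCR before sequencing, so a captured layer can carry RNA of its neighbours. Values are the signal of each gene, which is a read number multiplied by 1 factor per library. Pairs of values are those of MM17 and MM18 for 16 DAF and of MM05 and MM13 for 4 DAF. MM05 is 4 DAF by its title and by the name of its data column, but its day label reads 8 DAF, so counts of genes are also given without it.

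Cross cells are a layer of the inner pericarp, the maternal wall of the grain, and hold chloroplasts, so that the young grain is green. Chloroplast genes of light capture and chlorophyll synthesis are therefore of interest in this layer, as are genes of cell division, which ends early in the pericarp, and of wall loosening and cell death, which accompany its collapse as the endosperm fills. Abscisic acid, a hormone of seed maturation, is made by cleavage of carotenoids, which 9-cis-epoxycarotenoid dioxygenases (NCED) carry out. The study designed PCR primers for 3 genes as marks of CC, named C1, C2 and C3, and they are shown because the levels of these genes bear on what the 5 libraries hold.
C1 forward, Os02g0727100: gacctggagcagagttggag
C1 reverse, Os02g0727100: gagcagaggaagtcgtggag
C2 forward, Os06g0267900: aatacacgtcggccttatcg
C2 reverse, Os06g0267900: tgcacgttgtaatggcaaat
C3 forward, Os10g0116400: attcttggtggttcgactgg
C3 reverse, Os10g0116400: ggacttgatggatggcaagt

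The primer genes did not run together over time. C1 (Os02g0727100) had a signal of 10.5 and 173 at 16 DAF, against 119 and 277 at 4 DAF, and 0 in MM21 of 8 DAF. C2 (Os06g0267900), which the deposited annotation assigns to defence response, had 22.6 and 173 at 16 DAF, against 0 and 0 at 4 DAF, and 0 at 8 DAF. C3 (Os10g0116400) reached 3252 in MM21 and stood at 0 and 0 at 16 DAF, against 5.83 and 2.55 at 4 DAF. C1 overlapped between 16 and 4 DAF, and C3 was high in the 8 DAF library alone. C2 was the one called different between 16 and 4 DAF. It was above 10 in the 2 CC libraries of 16 DAF alone, through which it passed the filter, so its call is no separate support. The study picked the 3 genes from its own list of differentially expressed genes, so they are no independent marks either. Among marks of the neighbours, none of the 3 EN primer genes reached 3 reads in any of the 5 libraries. OsWRKY71 of AL was at 0 in all 5, but averaged only 49.6 in AL itself, so its 0 says little. The 9 late embryogenesis and oleosin genes, also taken as AL marks, were present. Their share of the signal was 0.0291% and 0.0974% at 16 DAF, against 0.0773% and 0.0393% at 4 DAF. The part of carried-over AL RNA was not tested. OsMADS29 (Os02g0170300), a regulator of nucellus breakdown taken here as a mark of NE, had 292 and 886 at 16 DAF, against 896 and 312 at 4 DAF, and 637 at 8 DAF, and the other 3 NE marks had 0 in all CC libraries of 8 and 16 DAF. Its mean at 16 DAF was 589 in CC and 509 in NE, so that at this stage it did not set NE apart. OsHMA2 (Os06g0676000), a zinc and cadmium transporter, marked OVT at 4 and 8 DAF, with OVT means of 23550 and 13110. In CC it had 130 and 9.63 at 16 DAF, against 175 and 159 at 4 DAF. The single OVT library of 16 DAF had 22.2, under the 33.4 that 3 reads give there, against means of 69.9 in CC, 94.7 in NE and 156 in AL. At 16 DAF it therefore did not set OVT apart. The share of the whole list of 5 OVT marks was 0.00202% and 0.000254% at 16 DAF, against 0.00454% and 0.00388% at 4 DAF. The 13 storage protein genes of the endosperm, in contrast, were all above 0 in MM17, MM18 and MM21. Their share of the signal was 21.8% and 2.47% at 16 DAF, against 0.102% and 0.251% at 4 DAF, and 2.70% at 8 DAF, and the part of carried-over endosperm RNA in the results below was not tested.

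Estimated reads were 12786701 and 1578018 at 16 DAF, against 4312480 and 4952478 at 4 DAF, and 815258 at 8 DAF. A value of 0 therefore allows a mean signal of up to 5.64 at 16 DAF and 2.73 at 4 DAF, taken as 3 reads per library and averaged over the 2 libraries, and up to 28.5 at 8 DAF. These limits cover counting error only. Across genes, Pearson's correlation on the log2 scale was 0.711 between the 16 DAF libraries, against 0.857 between the 4 DAF libraries. Between stages it was 0.667 to 0.708, so that the 2 libraries of 16 DAF were hardly more alike than libraries of different stages. In the titles both 4 DAF libraries carry the letter X and the 8 and 16 DAF libraries the letter B, so that within CC the letter and the stage cannot be told apart. The study describes its libraries as biological replicates. The labels do not say whether the 2 libraries of a stage came from separate plants. Each p-value and SE rests on 1 spread per gene, taken between libraries within all 13 groups. That spread therefore draws mostly on libraries of other tissues, and less on the CC libraries.

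Among 27529 genes tested, 200 were higher (0.727%) and 550 lower (2%) in CC at 16 than at 4 DAF, at an adjusted p under 0.05 (limma on log2(signal + 10), Benjamini-Hochberg over all tested genes), or 2.72% in either direction. At an unadjusted p under 0.05 these numbers were 1330 (4.83%) and 3183 (11.6%). For all 750 called genes the 2 values of one stage lay beyond both values of the other, which held for 41.6% of all tested genes. The median log2 difference over all tested genes was -0.20. It was -0.07 with another scaling (TMM factors) and 0.00 without MM05, so a fall of the bulk of genes cannot be read from it. Of the 200 higher genes 77 were at 0 in both libraries of 4 DAF, and of the 550 lower genes 256 were at 0 in both libraries of 16 DAF. The other called genes, which are the larger part, were seen in at least 1 library of each stage.

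The counts depended on single libraries and on how the spread was modelled. Without MM05, 52 genes were called higher and 334 lower, of which 48 and 171 are among the 200 and 550. Without MM13 the counts were 92 and 653, without MM17 372 and 285, and without MM18 321 and 244. With voom, a limma model that weights each value by its read number, they were 77 and 144, with 60 and 119 shared. The spread of a gene was taken over all 13 groups, and only 67 of the 200 higher and 138 of the 550 lower genes had a signal above 10 in at least 14 of the 28 libraries, so that for most called genes the spread rests largely on values near 0. On simulated data this test made many false calls, more than its threshold allows and more than voom or the fit of genes above 10 in at least 14 libraries made. The 200 and 550 calls are therefore likely to hold more false ones than the threshold states, and adjusted p-values of genes near 0 in most libraries are too small. A fit of only the genes above 10 in at least 14 libraries called 14 higher and 29 lower. Genes called with all libraries, without each of the 4 CC libraries in turn and by voom numbered 26 higher and 33 lower. With the title letter as a covariate, which is estimated from the other tissues, 40 genes were called higher and 106 lower.

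**Figure D1:**
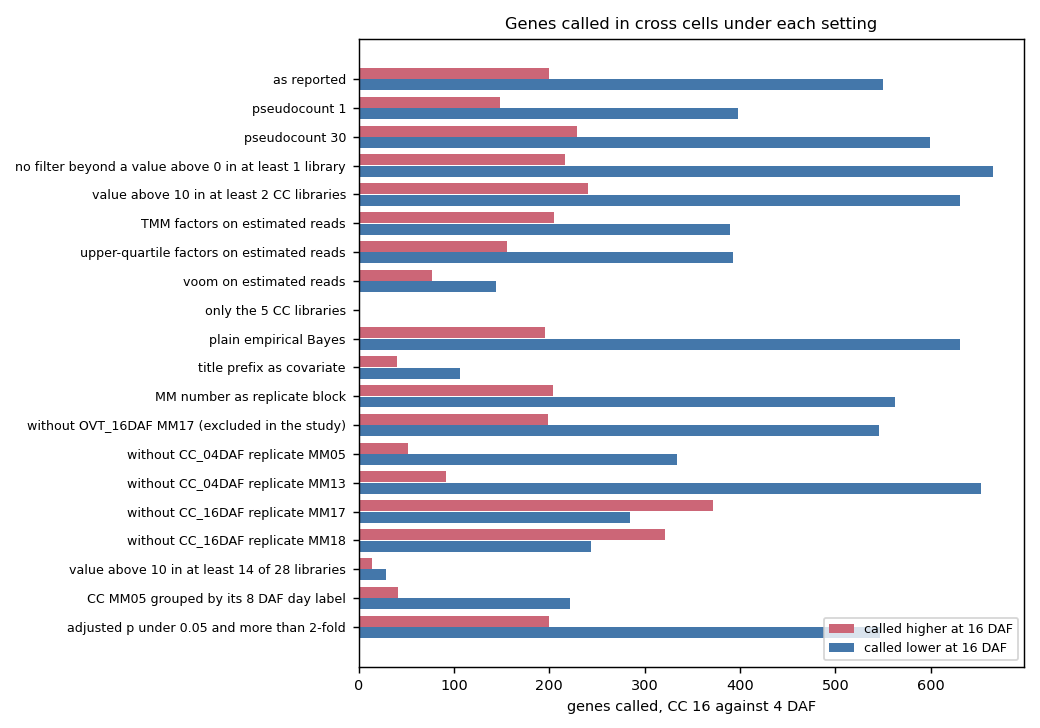
Number of genes called higher (red) and lower (blue) in CC at 16 than at 4 DAF under each setting, as bars from 0 genes. The test as reported gave 200 and 550 genes, a fit of the 5 CC libraries alone gave 0 and 0, and the counts without 1 library ran from 52 to 372 higher and from 244 to 653 lower.

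Genes of DNA replication and cell division were among those called lower at 16 DAF. Of 62 tested genes of DNA replication 8 were called lower and none higher, with a median log2 difference of -1.29, against -0.20 over all tested genes (-1.35 and -0.18 with genes at 0 in one stage set at their bound). None of these 8 genes was called in more than 2 of the 4 fits that left out 1 library. Os05g0358200, a DNA primase that lays down the primers of replication but is not in the list, had 0 and 0 at 16 DAF, against 143 and 356 at 4 DAF, and 0 at 8 DAF. It was at least 44.2-fold lower at 16 DAF (adjusted p = 0.000439, limma) and was called in 4 of 4 fits that left out 1 library. Os07g0628600, a subunit of the origin recognition complex, had 0 and 0 at 16 DAF, against 129 and 86.8 at 4 DAF. For Os02g0797400, a gene of replication initiation, 0 and 0 at 16 DAF stood against 228 and 228 at 4 DAF. For the primase and these 2 members of the list all reads of the tested libraries fell in the 4 DAF pair.

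The medians of nucleosome, kinesin and mitosis genes had the same sign. Of 61 nucleosome genes, the histones that package DNA, 4 were called lower and none higher (median -1.47). Of 57 genes of microtubule-based movement, which encode kinesin-type motor proteins, 7 were called lower and none higher (median -1.33), and of 28 cell cycle genes 3 were called lower and none higher (median -0.74). All 6 genes of the mitosis list were negative (median -3.14), and 2 of them were called lower. One is Os04g0563700, a cyclin-type regulator of cell division kinases with 0 and 6.42 at 16 DAF, against 66.1 and 109 at 4 DAF, and its call was lost in each fit without 1 library. Os03g0577100, annotated to mitosis but outside that list, had 0 and 0 at 16 DAF, against 54.0 and 183 at 4 DAF, and was at least 21.0-fold lower (adjusted p = 0.00252, limma). For these genes the stages did not overlap. Calls in these lists were few and rested on single libraries. Without MM05, MM13, MM17 and MM18 in turn, the DNA replication list had 1, 5, 2 and 1 genes called lower, microtubule-based movement 1, 4, 1 and 1, cell cycle 0, 2, 1 and 1, and nucleosome and mitosis 0 each time. A nucleosome gene was called higher without MM17 and without MM18 (1 in each fit). By voom, 5, 3, 4, 1 and 0 genes of the DNA replication, nucleosome, microtubule-based movement, cell cycle and mitosis lists were called lower, and at an unadjusted p under 0.05 21, 24, 20, 6 and 6 were lower and at most 1 in any of them higher. The summed share of the nucleosome genes was 0.169% and 0.238% at 16 DAF, against 0.417% and 0.404% at 4 DAF.

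Genes of light capture and chlorophyll synthesis mostly had negative differences between 16 and 4 DAF, with few calls, and their summed share was highest in the 8 DAF library. Of 66 photosynthesis genes 6 were called lower and 2 higher (median -0.93), and 56 of the 66 had a negative difference. Their summed share of the signal was 0.278% and 0.50% at 16 DAF, against 1.11% and 1.01% at 4 DAF, and 2.09% in MM21. Os01g0720500, annotated to light harvesting, had 105 and 32.1 at 16 DAF, against 1208 and 1442 at 4 DAF, and 2848 at 8 DAF. Its log2 difference was -4.25 ± 0.74 (SE, n = 2 libraries per stage, adjusted p = 0.00215, limma), and it was called in 4 of 4 fits without 1 library. Os09g0439500, also of light harvesting, had 2.21 and 3.21 at 16 DAF, against 49.6 and 34.0 at 4 DAF. In the other tissues its mean was at most 3.12 at 4 and 16 DAF, so its spread rests largely on values near 0. In each 16 DAF library both genes lay below the 4 DAF pair, as in all genes called lower. A pair of photosynthesis genes went the other way. Os07g0147500, of photosystem II, reached 1247 and 2083 at 16 DAF, against 5.83 and 117 at 4 DAF, and 742 at 8 DAF. Os03g0731100, of photosystem I, had 35.9 and 96.3 at 16 DAF, against 8.75 and 3.40 at 4 DAF. The list had 5, 6, 4 and 6 lower calls without MM05, MM13, MM17 and MM18, and voom called none of its genes. The higher calls numbered 0, 1, 3 and 1 in the same 4 fits.

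All 11 genes of chlorophyll synthesis had a negative difference (median -2.01), and 1 was called lower. This is Os03g0351200, with 1.65 and 3.21 at 16 DAF, against 47.7 and 33.2 at 4 DAF, and 0 at 8 DAF. Os01g0279100, annotated to chlorophyll biosynthesis, had 96.0 and 141 at 16 DAF, against 754 and 539 at 4 DAF, and 3860 at 8 DAF, but its difference of -2.35 ± 0.89 (SE, n = 2 per stage) did not pass (adjusted p = 0.167, limma). The share of the list was 0.0165% and 0.0176% at 16 DAF, against 0.0935% and 0.0744% at 4 DAF, and 0.169% at 8 DAF. Its share was thus lower at 16 DAF in both libraries. All 6 genes of chlorophyll breakdown had a positive difference (median 1.65) and none was called (1 at an unadjusted p under 0.05, and none by voom). The 5 genes of the rubisco small subunit, of the enzyme that fixes carbon dioxide, were not called in either direction (1 lower at an unadjusted p under 0.05, and none by voom). Os12g0291100, the most abundant of them, had 1830 and 2311 at 16 DAF, against 4535 and 7433 at 4 DAF, and 30780 at 8 DAF.

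**Figure D2:**
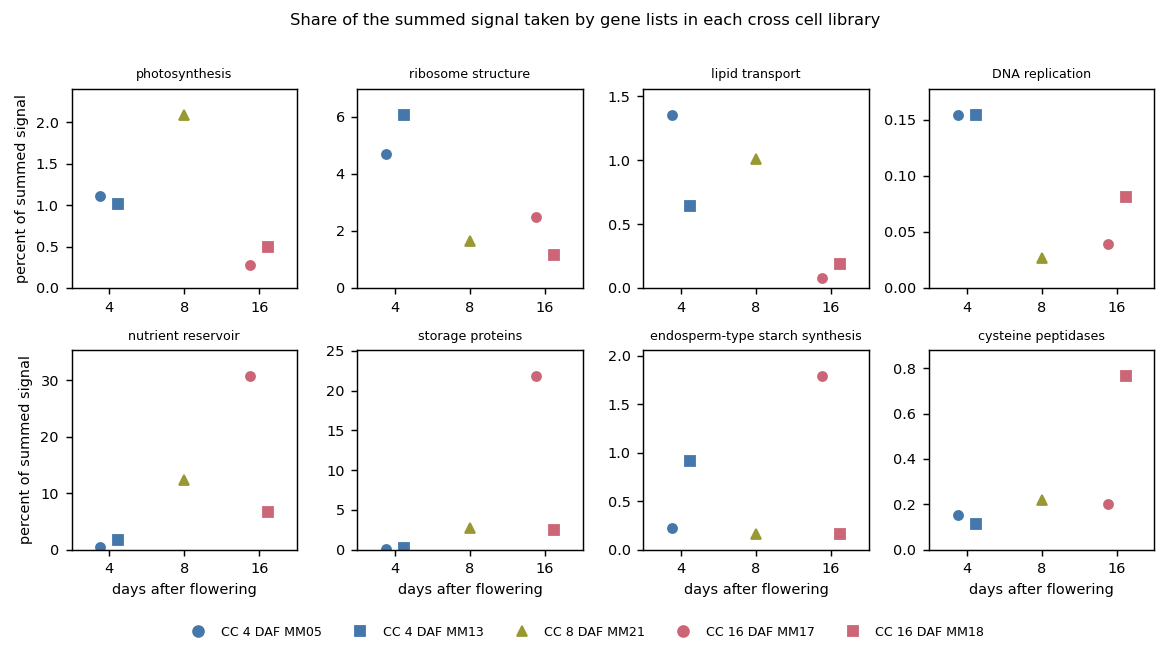
Share of the summed signal, in percent, taken by 8 gene lists in each CC library (points) against days after flowering, with 2 libraries at 4 DAF, 1 at 8 DAF and 2 at 16 DAF. Photosynthesis and lipid transport lay lower in both 16 DAF libraries than in both 4 DAF libraries, and storage proteins took 21.8% in MM17 and 2.47% in MM18.

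Lipid transport genes gave some of the largest decreases in CC. Of 52 tested genes 6 were called lower and none higher, while the median of the list was -0.09, near that of all genes. Os12g0114800, a lipid-binding protein, had 11.6 and 40.1 at 16 DAF, against 6808 and 4687 at 4 DAF, and 18050 at 8 DAF. The log2 difference was -7.43 ± 1.28 (SE, n = 2 per stage, adjusted p = 0.00198, limma). Os03g0808500, of the same annotation, had 56.8 and 132 at 16 DAF, against 23720 and 6970 at 4 DAF, and 13290 at 8 DAF. Os11g0115100, with nearly the same values as Os12g0114800, may share reads with it as a near copy, and the values of this pair are uncertain as separate genes. Each of the 3 was still high in the 8 DAF library, above or between the 4 DAF values, and far below it in both 16 DAF libraries. The same 3 genes fell in NE, with means of 2.79 to 9.72 at 16 DAF, against 12098 to 20199 at 4 DAF. The list lost calls without single libraries (2, 5, 3 and 3 lower without MM05, MM13, MM17 and MM18, and 1 higher without MM18). Voom called none of its genes, and at an unadjusted p under 0.05 there were 18 lower and 1 higher.

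Genes annotated to lipid metabolism with ester hydrolase activity, a group chosen after the called genes were seen, gave calls that were mostly lower. Of 66 tested, 7 were called lower and 1 higher, while voom called 6 lower and 1 higher, and 5 and 1 were called without MM05. Os10g0463200 had 2.21 and 0 at 16 DAF, against 770 and 634 at 4 DAF, and 1445 at 8 DAF. In Os05g0518300, 0 and 0 at 16 DAF stood against 575 and 317 at 4 DAF, a difference of at least 79.1-fold (adjusted p = 0.00332, limma). Os01g0215700 and Os09g0132900 were at 0 in both 16 DAF libraries as well, against 805 and 113, and 238 and 183, at 4 DAF. All 4 were called in each of the 4 fits that left out 1 library. The member that rose, Os02g0740400, had 93.8 and 73.8 at 16 DAF, against 0 and 0 at 4 DAF, and 105 at 8 DAF, and was at least 30.6-fold higher, with a signal above 10 in these 3 libraries alone. Of 58 genes of fatty acid biosynthesis 4 were called lower and none higher (median -1.29; 1, 7, 3 and 3 without MM05, MM13, MM17 and MM18). Os04g0578400, an oxidoreductase of this list, had 3.31 and 0 at 16 DAF, against 111 and 72.3 at 4 DAF.

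Single genes with large decreases had several roles. OsIAA30 (Os12g0601300), a repressor of auxin responses, had 0 and 0 at 16 DAF, against 823 and 626 at 4 DAF, and 580 at 8 DAF. It was at least 128-fold lower (adjusted p = 0.000924, limma) and was called in 4 of 4 fits without 1 library and by voom. Its mean in NE was 3.81 at 16 DAF, against 511 at 4 DAF. Os03g0369100, which has no GO identifier, showed the largest log2 difference among the lower genes that the naming rule kept, with 0 and 0 at 16 DAF, against 2374 and 2151 at 4 DAF, and 19.0 at 8 DAF. Os07g0565800, also without a GO identifier, and Os09g0361200, annotated only to the membrane, were at 0 in both 16 DAF libraries, against 794 and 1057, and 897 and 542, at 4 DAF. Os03g0102700, annotated to sexual reproduction, had 2.21 and 0 at 16 DAF, against 544 and 1137 at 4 DAF, and peaked at 12080 in MM21. Its neighbour by identifier, Os03g0102775, moved with it, and since the strand of counting is not given in the sources used here, their reads may be shared. Os01g0800701 and Os01g0175633 had at most 12.8 in any 16 DAF library, against 667 to 1457 at 4 DAF, and neither was called in all fits without 1 library (0 of 4 for both).

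Enzymes of central metabolism were among the lower genes. Os01g0660300, a pyruvate kinase of glycolysis, had 0 and 0 at 16 DAF, against 643 and 608 at 4 DAF, and 628 at 8 DAF, and Os02g0714200, a phosphofructokinase, had 9.93 and 0 at 16 DAF, against 665 and 528 at 4 DAF. These were the 2 genes called lower of 51 glycolysis genes (median -1.04; 0, 3, 1 and 2 without MM05, MM13, MM17 and MM18), and none was called higher. Os03g0118800, a hydroxymethylglutaryl-CoA synthase of isoprenoid synthesis, had 2.76 and 19.3 at 16 DAF, against 1377 and 655 at 4 DAF, and 1046 at 8 DAF. Os11g0455500, an adenosylhomocysteinase, had 714 and 417 at 16 DAF, against 3592 and 5325 at 4 DAF, and 3081 at 8 DAF, and was above 10 in all 28 libraries. Its log2 difference was -2.98 ± 0.57 (SE, n = 2 per stage, adjusted p = 0.0047, limma). Neither gene overlapped between the stages, and both were called in 4 of 4 fits without 1 library.

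Ribosomal protein genes mostly had negative differences, with few calls. Of 301 tested, 273 had a negative difference (median -1.33), 98 were lower at an unadjusted p under 0.05 and 11 were called, none of them higher. Their share of the signal was 2.49% and 1.17% at 16 DAF, against 4.70% and 6.08% at 4 DAF, and 1.65% at 8 DAF. Os08g0116500, a ribosomal protein of translation elongation, had 1795 and 276 at 16 DAF, against 3382 and 4475 at 4 DAF. The number called was 1, 4, 31 and 1 without MM05, MM13, MM17 and MM18, and voom called none. The direction of the median was the same under all 18 alternative settings that gave a value, between -1.99 and -0.61. In NE, 75 genes of the list were called lower at 16 than at 4 DAF, with a median of -1.58.

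Cell wall genes were mixed. Of 65 genes of pectin modification 8 were called lower and 1 higher (median -0.62; 1, 10, 2 and 2 lower, and 0, 0, 3 and 1 higher, without MM05, MM13, MM17 and MM18). Os05g0521600, a pectinesterase, had 0.552 and 0 at 16 DAF, against 176 and 57.0 at 4 DAF, and the polygalacturonase Os02g0256100 had 0 and 0, against 467 and 109. Of the peroxidases 2 of 79 were higher and 4 lower (median 0.00; 1, 1, 1 and 2 higher, and 3, 4, 3 and 3 lower, without MM05, MM13, MM17 and MM18). Os02g0833900 peaked at 2662 in MM21 and had 0 and 0 at 16 DAF, against 57.4 and 317 at 4 DAF. Os12g0448900 ran the other way, with 22.6 and 44.9 at 16 DAF, against 0 and 0 at 4 DAF, and 9.51 at 8 DAF. Of 9 cellulose synthase genes none was called (0 of 9 also by voom and at an unadjusted p under 0.05).

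**Figure D3:**
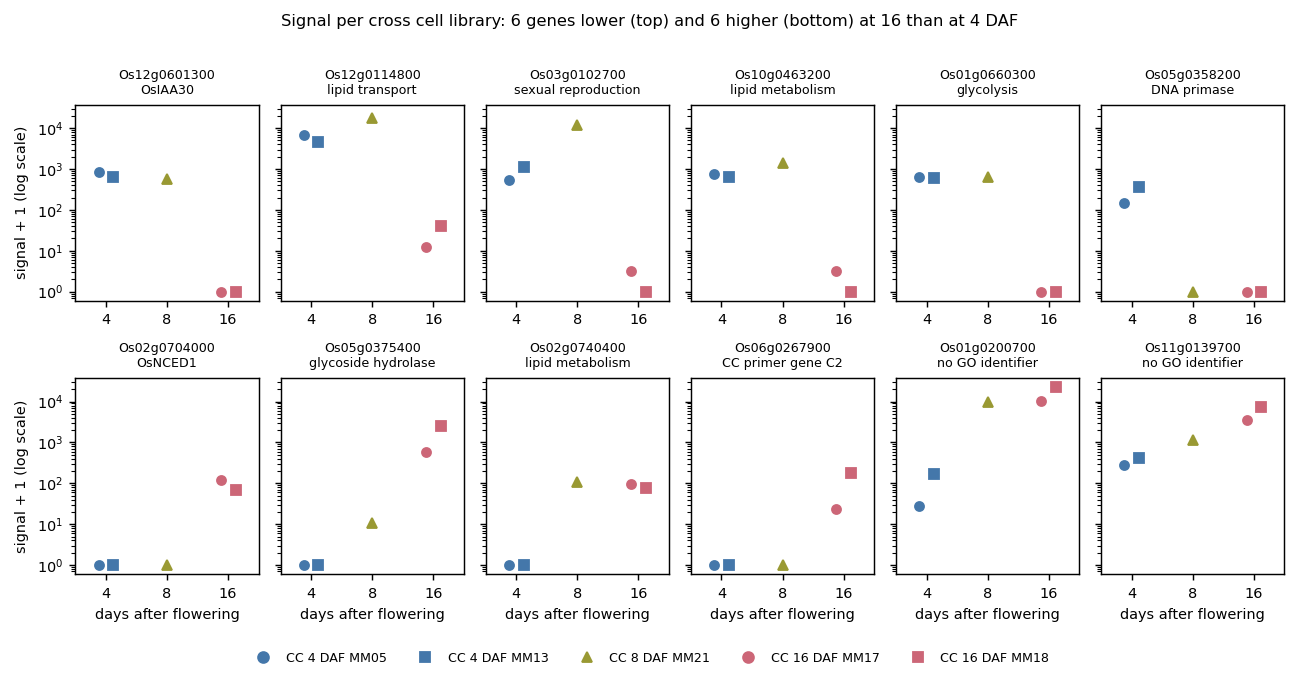
Signal plus 1 (log axis) of 6 genes lower and 6 genes higher at 16 than at 4 DAF in each of the 5 CC libraries, by days after flowering. In all 12 panels the 2 libraries of 16 DAF lie beyond both libraries of 4 DAF, and the 8 DAF library is at 0 for OsNCED1, C2 and the DNA primase gene and above both 4 DAF libraries for 3 of the lower genes.

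Among the higher genes, OsNCED1 (Os02g0704000) had 117 and 67.4 at 16 DAF, against 0 and 0 at 4 DAF, and 0 at 8 DAF. It has no GO identifier and was placed among genes of abscisic acid synthesis by its name, so its part in that pathway was not tested. It was at least 33.7-fold higher and averaged 3.86 in NE and 0 in EN at 16 DAF. Its signal was above 10 in 2 of the 28 libraries, those of CC at 16 DAF, through which it passed the filter, so its calls are no separate support for the difference. Os02g0704131, which adjoins it by identifier, had 87.7 and 44.9 at 16 DAF, against 0 and 0 at 4 DAF, so the reads of the pair may be shared. Of the 10 genes of abscisic acid synthesis and breakdown 2 were called higher and none lower (median 0.93; 1 higher in each fit without 1 library). The second is Os07g0281700, with 35.9 and 64.2 at 16 DAF, against 0 and 0 at 4 DAF. OsNCED3 (Os03g0645900) was at 0 and 9.63 at 16 DAF, against 0 and 0 at 4 DAF, and OsNCED2 (Os12g0617400) had 37.5 and 327 at 16 DAF, against 98.2 and 87.6 at 4 DAF. Neither of these 2 passed. OsABA1 (Os04g0448900) had 202 and 851 at 16 DAF, against 83.6 and 145 at 4 DAF, a difference of 1.83 ± 1.28 on the log2 scale (SE, n = 2 per stage, adjusted p = 0.533, limma), and OsAAO3 (Os03g0790900) had 585 and 282, against 165 and 126. None of the 5 abscisic acid response factors was called (0 of 5 also by voom and at an unadjusted p under 0.05).

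Glycosyl hydrolases, a group chosen after the called genes were seen, gave calls in both directions: 8 of 189 tested genes with O-glycosyl hydrolase activity were higher and 14 lower, while voom called 7 higher and 1 lower, and 5 and 2 were called without MM05. Os05g0375400 had 568 and 2465 at 16 DAF, against 0 and 0 at 4 DAF, and 9.51 at 8 DAF, and was at least 554-fold higher (adjusted p = 0.00219, limma). Os05g0247100 had 452 and 478, against 0 and 0, and Os04g0474800 had 90.4 and 257, against 0 and 0, at 16 and 4 DAF. All 3 were called in 4 of 4 fits without 1 library. Their EN means at 16 DAF were 0, 15.3 and 0, well under their CC values, and their NE means were 210, 47.6 and 6.09. Os04g0474800 was above 10 in only 4 of the 28 libraries, so its spread rests largely on values near 0. Os11g0700900 had 1722 and 940 at 16 DAF, against 0 and 0 at 4 DAF, and 1911 at 8 DAF, and lost its call in each fit without 1 library. At 16 DAF its mean was 103 in NE, but the single OVT library had 21830, above both CC values.

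Single genes of acyltransferases, peptidases and transporters were also higher. Os05g0136900, an acyltransferase by annotation, had 368 and 687 at 16 DAF, against 2.92 and 1.70 at 4 DAF, and 209 at 8 DAF. Os05g0278500, of the same annotation, had 82.2 and 148 at 16 DAF, against 0 and 0 at 4 DAF, and was above 10 in only 5 of the 28 libraries. Both were called in each of the 4 fits without 1 library. The cysteine peptidase Os08g0556900 had 5805 and 15920 at 16 DAF, against 91.4 and 18.7 at 4 DAF, and 1483 at 8 DAF, with an NE mean of 12864 at 16 DAF. It was called without MM05 or MM17 but not without MM13 or MM18. Os04g0509600, an ammonium transporter, had 65.1 and 35.3 at 16 DAF, against 0 and 0 at 4 DAF, and 38.03 at 8 DAF. Os11g0490900, a transcription factor by annotation, had 116 and 32.1 at 16 DAF, against 0 and 0 at 4 DAF. For both, every 16 DAF value lay above the 4 DAF pair, as in all genes called higher. Each was above 10 in only 3 of the 28 libraries, among them both CC libraries of 16 DAF. Their spread therefore rests on values near 0, and their calls are no separate support for the difference. Over the whole list of transcription factors the numbers were small, with 3 of 349 called higher and 6 lower (median 0.00; 1, 3, 6 and 7 higher, and 0, 8, 1 and 1 lower, without MM05, MM13, MM17 and MM18).

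Of the genes with no GO identifier, Os06g0602950 had 87.7 and 103 at 16 DAF, against 0 and 0 at 4 DAF, and 0 at 8 DAF (at least 34.8-fold higher). Like OsNCED1 it was above 10 in the 2 CC libraries of 16 DAF alone. Os11g0139700 was present in all 28 libraries and had 3595 and 7324 at 16 DAF, against 275 and 425 at 4 DAF, and 1122 at 8 DAF. Its log2 difference was 3.87 ± 0.56 (SE, n = 2 per stage, adjusted p = 0.00051, limma). Os01g0200700 had 10400 and 22740 at 16 DAF, against 27.2 and 168 at 4 DAF, and 9860 at 8 DAF. At 16 DAF its mean was 25.7 in EN, but the single OVT library had 127500, above both CC values. Os11g0139700 and Os01g0200700 were called in 4 of 4 fits without 1 library. Os11g0454300, annotated to the response to water, had 631 and 1534 at 16 DAF, against 0 and 0 at 4 DAF, and 276 at 8 DAF. Its means at 16 DAF were far above both CC values in AL (22801) and NE (16634), as was the single OVT library (27370), and 1252 in EN. It was the 1 gene called of 9 late embryogenesis and oleosin genes. Its call was lost in each fit without 1 library.

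The 2 largest increases were in genes that are far more abundant in the endosperm. Os07g0206400, annotated as a nutrient reservoir, had 217200 and 9672 at 16 DAF, against 72.9 and 0.851 at 4 DAF, and 16580 at 8 DAF, with a mean of 1622000 in EN at 16 DAF. Os02g0249000, a storage protein gene, had 9657 and 3588 at 16 DAF, against 34.0 and 5.10 at 4 DAF. Neither was called in all fits without 1 library (1 and 0 of 4). All 13 storage protein genes had a positive difference (median 6.43), with 1 called and 9 at an unadjusted p under 0.05. Thus the direction was shared while the spread between MM17 and MM18 was large. OsGLUA1 (Os01g0762500) shows it, with 197700 and 19920 at 16 DAF, against 539 and 679 at 4 DAF, and 12160 at 8 DAF, and an adjusted p of 0.200 (limma). Os05g0329400, Os05g0331532 and Os05g0331800, without GO identifiers and with EN means of 96275 to 213300 at 16 DAF, had 1972 to 5204 in CC at 16 DAF, against 0 to 29.3 at 4 DAF, and none of them was called in all 4 fits without 1 library. Of the 200 higher genes, 33 had a higher mean in EN than in CC at 16 DAF, a share not computed over all tested genes. EN had the highest 16 DAF mean of all tissues for 24 of the 200, and for 18.1% of all tested genes. The 33 are therefore no sign of more endosperm signal than in other genes. The storage protein list had no call in any of the 4 fits without 1 library, and none by voom.

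Starch synthesis genes of the endosperm type did not separate the stages. None of the 12 was called (1 at an unadjusted p under 0.05, and none by voom), and the median difference was 0.42. Without MM18, 1 gene was called higher, and the median changed sign in 4 of 18 alternative settings. Os01g0633100, a nucleotidyltransferase by annotation, had 11200 and 854 at 16 DAF, against 864 and 5374 at 4 DAF, and 2025 at 8 DAF. The 2 stages overlapped for this gene, and the share of the list was 1.79% and 0.159% at 16 DAF, against 0.221% and 0.917% at 4 DAF. MM17 and MM13 thus held more of these transcripts than their partners of the same stage. Fewer cells of a type and less RNA per cell cannot be told apart in such captured tissue.

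**Figure D4:**
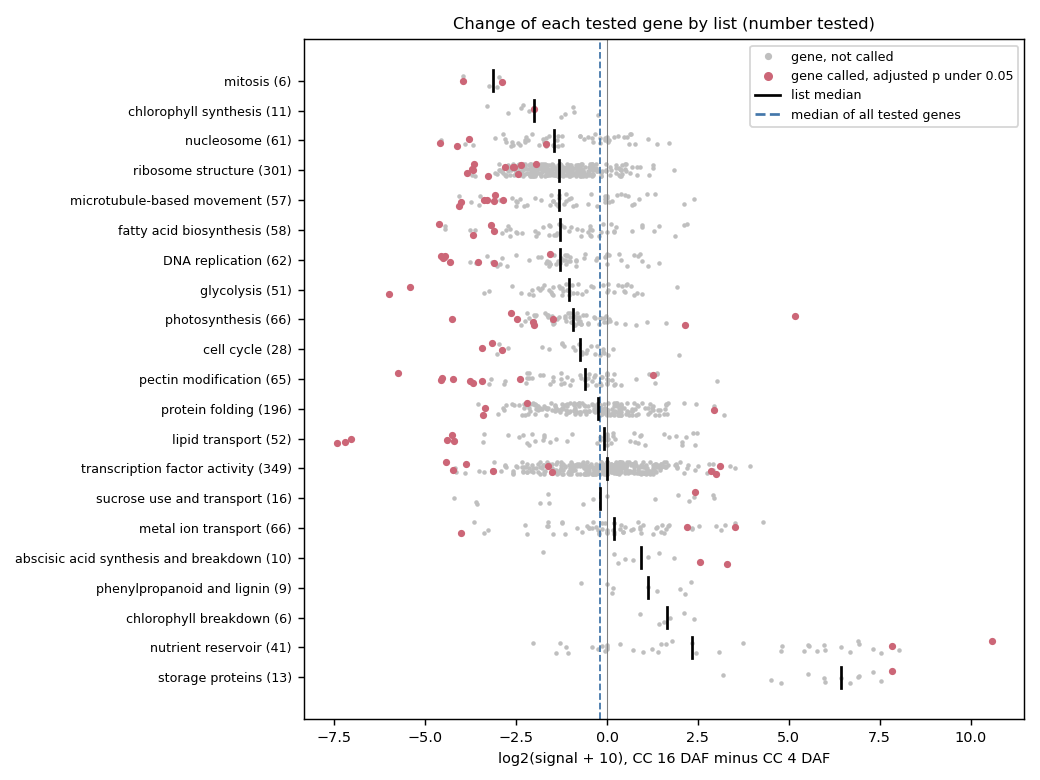
Difference between CC at 16 and at 4 DAF on the log2(signal + 10) scale for each tested gene (points) of 21 gene lists, with called genes in red, list medians as black bars and the median of all tested genes as a dashed line at -0.20. Medians ran from -3.14 for mitosis to 6.43 for storage proteins.

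Some lists of interest held few calls. Of 16 genes of sucrose use and transport, 1 was called higher (median -0.19; 1, 0, 0 and 0 without MM05, MM13, MM17 and MM18). This is Os02g0534400, a glycosyl hydrolase with 56.8 and 61.0 at 16 DAF, against 6.81 and 0 at 4 DAF. None of 9 genes of phenylpropanoid synthesis was called (1 at an unadjusted p under 0.05, and none by voom), although 7 had a positive difference (median 1.11). Os02g0626100, a phenylalanine ammonia-lyase at the entry to this pathway, had 2258 and 5437 at 16 DAF, against 733 and 836 at 4 DAF, and 6884 at 8 DAF.

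For the called genes, the 8 DAF library did not simply lie between the 2 stages. The same positions were not counted over all tested genes, so they cannot be read as a trait of the called genes. Of the 200 higher genes, its value lay between the 2 stage means for 76, at or above the 16 DAF mean for 12, and at or below the 4 DAF mean for 112, of which 104 were at 0 in MM21. For the 550 lower genes, 162 lay between, 121 at or above the 4 DAF mean, and 267 at or below the 16 DAF mean, with 263 genes at 0. MM21 is the shallowest of the 28 libraries. A higher-stage mean above what 3 reads give there was found for 177 higher and 466 lower genes. Of these, 90 and 199 were at or below the lower mean in MM21. Os12g0114800 and Os03g0102700 are among the lower genes still above the 4 DAF mean in this library, and OsNCED1 and C2 among the higher genes not seen there.

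Set beside NE, a maternal tissue with 3 libraries at both stages, few changes in CC differed from those in NE by a test of the difference. NE had 752 genes higher (2.73%) and 1174 lower (4.26%) at 16 than at 4 DAF. The calls of CC and NE shared 56 higher genes, 28% of those of CC and 7.45% of those of NE, and 201 lower genes, 36.5% and 17.1%, and no gene was called in opposite directions. A test of the difference between the 2 changes called 8 genes for which CC minus NE was positive and 15 for which it was negative (0.0291% and 0.0545% of tested genes, 0.0835% together), 22 of which were also called in CC itself. All 15 negative ones had a negative difference between the stages in CC. OsNCED1 was among the positive ones, with a difference of 2.88 ± 0.47 on the log2 scale (SE), and is subject to the limit given above for genes at 0 elsewhere. Os11g0536800, a ligase that uses glutamine by annotation, had opposite signs in the 2 tissues, with 0 and 0 at 16 DAF in CC, against 118 and 50.2 at 4 DAF, while NE averaged 1091 at 16 DAF, against 30.3 at 4 DAF. The difference was -7.47 ± 1.31 (adjusted p = 0.0238, limma), although the CC change alone did not pass (adjusted p = 0.0992). These counts moved with single libraries. They were 11 and 127 without MM05, 14 and 175 without MM13, 125 and 27 without MM17, and 158 and 36 without MM18, and leaving out 1 NE library gave 4 to 27 positive and 4 to 40 negative. By voom none was called (1163 and 723 at an unadjusted p under 0.05).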

How the data were processed

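RNA of laser-captured rice grain tissues was sequenced, and per the submitters' processing notes reads were aligned with STAR to IRGSP-1.0 and processed with edgeR. The deposited table holds a normalised signal per gene that the authors scaled with 1 factor per library. The values are whole multiples of the value of 1 read, within 0.03 of a read, for 86.4% to 95.7% of the values under 100 reads, and reads per library were estimated from these steps (815258 to 97250448 over the 28 libraries). Since the table holds no counts, no count model was run. The 28 libraries were assigned to 13 groups by their titles, and 1 signal column of no sample was not used. A gene was tested if any library had a signal above 10 that stood for 10 or more reads, which left 27529 of 45990. Values were tested as log2(signal + 10) in limma 3.58.1 (R 4.3.3) with a mean per group and a robust, intensity-dependent prior, and p-values were adjusted by Benjamini-Hochberg. Fold changes on this scale understate those of low genes. Against a stage at 0, a fold was set by 3 reads per library and is a lower bound. Calls are at an adjusted p under 0.05.

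A rule gave, in each direction, the 10 genes with the largest log2 difference and the 5 with the highest mean in the higher stage. It took called genes without overlap and with 10 reads in each library of that stage. Of the 12 higher and 12 lower genes it gave, voom called 1 and 6. Named genes were drawn from these and from members of the lists given by identifier, and not all of them are printed. Other named genes were chosen after their values were seen. Cross cells, the lists and the tests were chosen with earlier results of these data known. Roles come from the GO identifiers in the deposited annotation, and for genes given by symbol or in lists by identifier also from the symbol or list. Alternatives covered the pseudocount, filters, scaling factors (TMM and upper quartile, computed on estimated reads), voom, the prior, the title letter, a replicate block and each library left out. The fit limited to genes above 10 in 14 libraries and the regrouping of MM05 by its day label were chosen after seeing the data. A planned description of promoter motifs was not made, as no promoter sequences were used here.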

Additional observations from a re-analysis of the deposited data

Results flagged for a closer look

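In 12 of the genes named, the change from 4 to 16 DAF in CC differed from that in NE by a test of the difference itself. The following values are CC change minus NE change on the log2 scale, from limma with Benjamini-Hochberg adjustment over all tested genes. Positive differences were 3.287 for Os06g0602950, 2.961 for Os02g0740400, 2.922 for C2 (Os06g0267900), 2.88 for OsNCED1 (Os02g0704000), 2.566 for Os02g0704131, 2.318 for Os04g0509600, 2.084 for Os10g0491400 and 1.989 for Os12g0448900. In each of these 8 genes CC was at 0 in both libraries of 4 DAF and NE averaged under 4 at 16 DAF. All 8 had a signal above 10 in 3 or fewer of the 28 libraries, all of CC, so their spread rests on values near 0 and their p-values are too small. Negative differences were -2.13 for Os05g0568300, -2.322 for Os08g0119700, -2.979 for Os09g0268300 and -7.47 for Os11g0536800. The last is the 1 gene of these 12 that was not called in CC itself. Os05g0568300, Os08g0119700 and Os09g0268300 averaged under 4 in every other tissue at 4 and 16 DAF. Their spread therefore also rests largely on values near 0, and their p-values are too small.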

How the results depend on the processing

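Counts of genes called higher and lower in CC at 16 than at 4 DAF, 200 and 550 as reported, were 77 and 144 by voom, 0 and 0 with the 5 CC libraries alone (1282 and 3195 at an unadjusted p under 0.05), 40 and 106 with the title letter as a covariate, 14 and 29 for genes above 10 in 14 libraries, 41 and 222 with MM05 as 8 DAF, 1269 and 2982 at an unadjusted p under 0.05 and over 2-fold, and 52 to 372 and 244 to 653 without 1 library. Other settings gave 148 to 241 and 390 to 665. For the difference between the CC and NE changes, 8 and 15 as reported, the counts were 0 and 0 at a pseudocount of 1 (533 and 1362 unadjusted), 56 and 115 without the filter, 4 and 7 with a signal above 10 in 2 CC libraries, 7 and 5 by TMM, 6 and 9 by upper quartile, 0 and 0 by voom, 4 and 3 with the title letter, 0 and 0 for genes above 10 in 14 libraries (299 and 674 unadjusted), 5 and 95 with MM05 as 8 DAF, 697 and 1355 unadjusted and over 2-fold, and 4 to 158 and 4 to 175 without 1 library. The causes were not tested. Over 152 genes and 18 settings, 1670 of 2625 values kept direction and call, 955 kept the direction alone and 0 reversed. TMM moved the median of all genes to -0.07. The 2 CC stages share no MM number, so it pairs none of the tested CC libraries. As a replicate block it had a correlation of 0.024 and gave 204 and 563 calls. Fits in edgeR and DESeq2 were not run, as the values are not counts. The depth of MM21 and MM18 limits what can be seen of low genes.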
